A study of Mus musculus with 6 samples.

Results

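RNA-seq levels were compared between immortalised mouse embryo fibroblasts (iMEF) that lack nardilysin (Nrdc-/- iMEF, labelled Nrdc KO) and wild-type iMEF (Nrdc+/+, labelled WT), with 2 libraries of each, 4 of the 6 libraries of the series. Of 22369 genes in the table, the 11564 with a mean of at least 0.5 RPKM (reads scaled to gene length and library depth) over these 4 libraries were tested. Both genotypes are C57BL/6 embryo fibroblasts that were grown without synchronisation in low-glucose medium with serum, and polyadenylated RNA was read on an Ion Proton. The remaining libraries, from Nrdc-/- iMEF infected with a virus that carries Nrdc, entered the fit only through its estimate of the spread. How many lines or embryos stand behind each genotype is not given in the sources used here, so loss of Nrdc and a difference between lines cannot be told apart, and p-values measure only the spread between libraries. The methods of the study call its replicates biological, and the sources used here do not say what was separate between the libraries of a genotype. In bulk RNA, fewer cells that express a gene and less of its RNA per cell cannot be told apart either.

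Nardilysin is a zinc metalloendopeptidase of the M16 family, to which insulin-degrading enzyme and the mitochondrial processing peptidase also belong. Outside the cell and at its surface it enhances the shedding of membrane-anchored proteins by ADAM proteases. In the nucleus it binds histone H3 dimethylated at lysine 4 and works with transcriptional coregulators. Embryo fibroblasts are mesenchymal cells that build collagen-rich matrix and actin stress fibres, and immortalised lines of them commonly differ in genes of the p53 and Rb pathways.

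Nrd1, the gene that encodes nardilysin, stood at 1.53 and 1.51 RPKM in Nrdc-/- iMEF, against 27.9 and 28.9 RPKM in Nrdc+/+ iMEF (log2 difference -4.02, SE 0.09, adjusted p = 7.03e-09). The labels and the targeted gene therefore go together, with a residual level of 5.35% of that in Nrdc+/+ iMEF. The libraries held 16385565 and 17081955 reads in Nrdc-/- iMEF and 19457270 and 19764315 reads in Nrdc+/+ iMEF. Across genes, log2 levels correlated at 0.9954 between the Nrdc-/- libraries, at 0.9934 between the Nrdc+/+ libraries and at 0.782 to 0.783 between genotypes, where genes are not independent replicates. No pair of libraries was the same library deposited again, since each pair differed by more than sampling noise.

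A gene was called where the adjusted p was under 0.05 and the fold at least 1.3. By that rule 62.4% of the tested genes were called, 3680 of them (31.8%) higher in Nrdc-/- iMEF and 3541 (30.6%) lower, and 4343 did not meet the rule. Both libraries of one genotype lay above both of the other for 86.5% of genes. The median gene differed by 1.46-fold in either direction, and the median log2 difference over all genes was 0.00. A fold of at least 4 was reached by 615 genes that rose (5.32%) and 536 that fell (4.64%), a fold of at least 16 by 172 and 148, and a fold of at least 64 by 35 and 22. With so many genes called, a gene list is read below by its counts and median beside these background shares, and fold changes are on the log2(RPKM + 0.25) scale, which understates the change of low genes. A number in parentheses after a gene name is its log2 difference, Nrdc-/- over Nrdc+/+ iMEF.

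**Figure D1:**
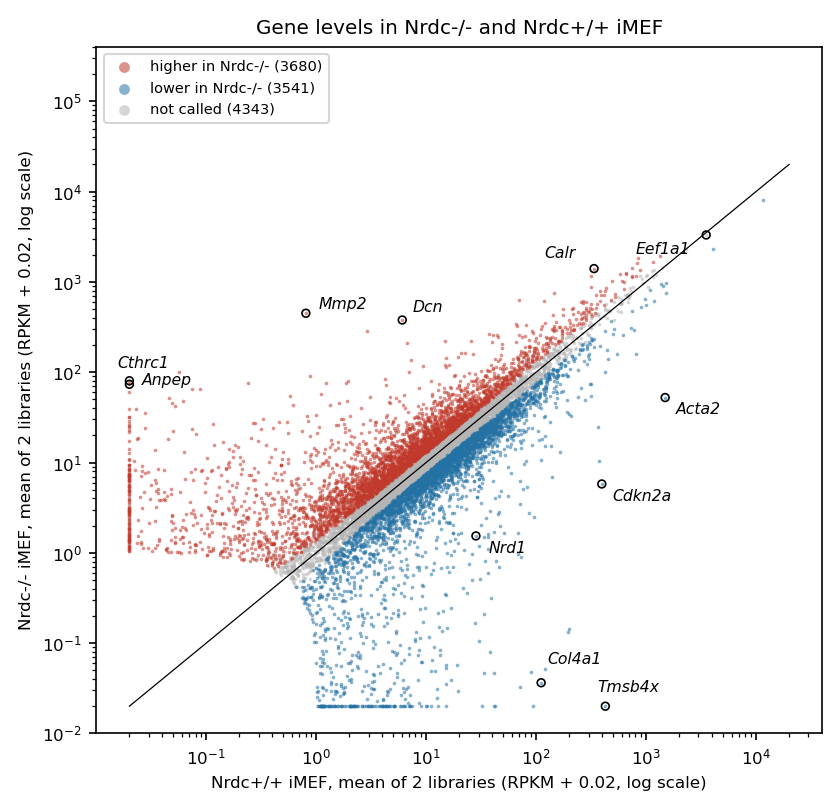
Mean RPKM of each of the 11564 tested genes in Nrdc-/- iMEF (vertical) against Nrdc+/+ iMEF (horizontal), both with a small offset on log axes, coloured by call, with equality as a line. Called genes fan out on both sides, Mmp2 far above the line, Tmsb4x and Col4a1 far below it, and the elongation factor Eef1a1 on it.

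The sharpest differences were genes read in one genotype only. Of the genes tested and called, 101 had 0 reads in both Nrdc-/- libraries and 110 had 0 reads in both Nrdc+/+ libraries. Among them, 10 genes silent in Nrdc-/- iMEF and 17 silent in Nrdc+/+ iMEF reached at least 10 RPKM in the other genotype. Against a floor of 3 reads over the silent group, these folds are lower bounds.

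Tmsb4x encodes thymosin beta-4, the main protein that sequesters actin monomers, and had 0 reads in both Nrdc-/- libraries, against 409 and 445 RPKM in Nrdc+/+ iMEF (at least 6912-fold lower, adjusted p = 6.27e-11). F11r, the junctional adhesion molecule JAM-A, had 0 reads in Nrdc-/- iMEF, against 30.5 and 33.6 RPKM in Nrdc+/+ iMEF (at least 1008-fold lower). In both genes the libraries of a genotype lay close together. Sprr1a, a small proline-rich protein of the cornified envelope, had 0 reads in Nrdc-/- iMEF, against 95.9 and 91.0 RPKM in Nrdc+/+ iMEF (at least 889.7-fold lower). Crabp1, which binds retinoic acid in the cytoplasm, had 0 reads in Nrdc-/- iMEF, against 47.6 and 37.8 RPKM in Nrdc+/+ iMEF (at least 404-fold lower). Another 5, all at 9.28 to 15.4 RPKM in single Nrdc+/+ libraries, were the carboxylesterase Ces1g, the adhesion receptor Cd97, the PDGF-receptor ligand Pdgfd, Tmem47 and 3110039M20Rik.

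Anpep, the cell-surface aminopeptidase N, reached 79.3 and 81.5 RPKM in Nrdc-/- iMEF, against 0 reads in both Nrdc+/+ libraries (at least 4263-fold higher, adjusted p = 1.04e-10). Nxf3, a member of the nuclear RNA export factor family, reached 63.9 and 55.4 RPKM in Nrdc-/- iMEF, against 0 reads in Nrdc+/+ iMEF (at least 2485-fold higher). Cthrc1, a secreted protein with a collagen triple helix repeat, reached 76.4 and 70.6 RPKM in Nrdc-/- iMEF, against 0 reads in Nrdc+/+ iMEF (at least 1487-fold higher). Several of the other genes silent in Nrdc+/+ iMEF encode secreted proteins. Agt, the angiotensin precursor, stood at 38.9 and 38.7 RPKM in Nrdc-/- iMEF and 0 reads in Nrdc+/+ iMEF. The matrix proteins Abi3bp and Sparcl1 stood at 29.0 and 28.1 RPKM and at 17.1 and 17.9 RPKM in Nrdc-/- iMEF, with 0 reads of either in Nrdc+/+ iMEF. Igfbp2, which binds insulin-like growth factors, stood at 13.7 and 14.2 RPKM in Nrdc-/- iMEF and 0 reads in Nrdc+/+ iMEF. The others were the immunoproteasome subunit Psmb8 (at least 852-fold higher), the zinc finger factor Zic1, the homeobox gene Rhox2h, Slurp1, Rtbdn, Arxes1, Bhlhb9, Gm13145, Gm15107 and Gm15128. On chromosome X lay 36 of the 110 genes silent in Nrdc+/+ iMEF (32.7%), against 3.48% of all tested genes, and 10 of the 101 genes silent in Nrdc-/- iMEF (9.90%). The 36 include 8 neighbouring genes like Ott, a gene of a multicopy family, counted one by one. These shares carry no test, since a silent gene was tested only because of its level in the other genotype.

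**Figure D2:**
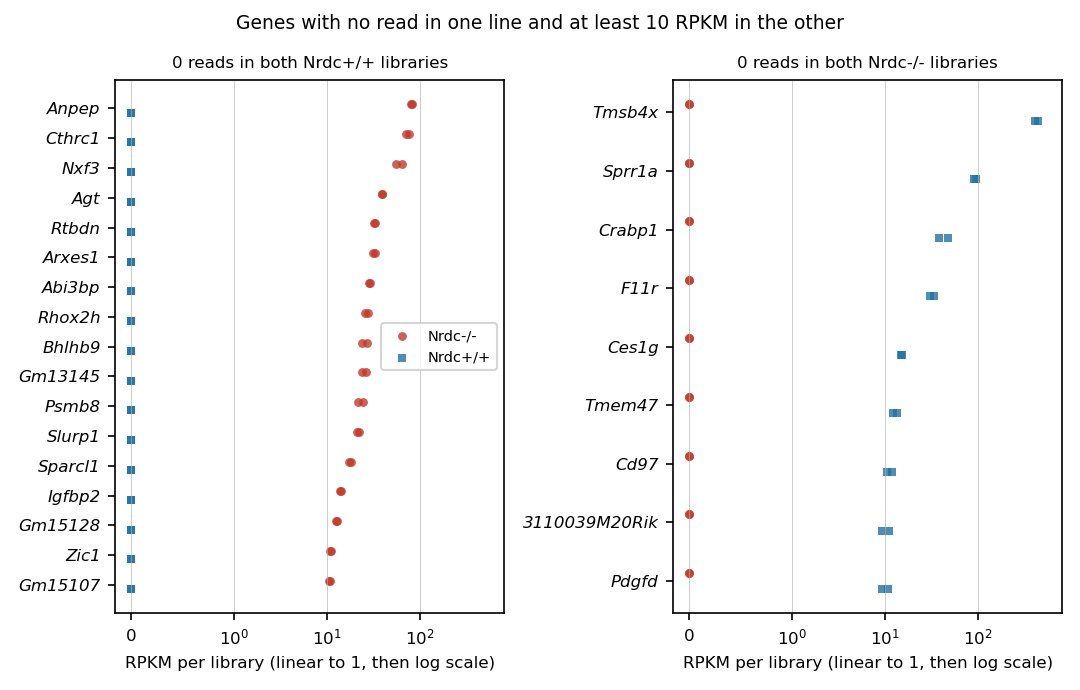
RPKM in each library (horizontal, linear to 1 and then log) of the genes described that have 0 reads in both libraries of one genotype and a mean of at least 10 RPKM in the other, red circles for Nrdc-/- and blue squares for Nrdc+/+ iMEF. The libraries of a genotype lie close together, the expressed ones between 9.28 RPKM and the 409 and 445 RPKM of Tmsb4x in Nrdc+/+ iMEF, and the silent ones at 0.

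The 150 bases upstream of the annotated 5' end are shown for some of these all-or-none genes as examples. They are printed 5' to 3' on the gene's strand from mm9 with the GENCODE vM1 gene models, with each CpG dinucleotide in capitals, first for 3 genes silent in Nrdc-/- iMEF and then for 3 silent in Nrdc+/+ iMEF.
Tmsb4x: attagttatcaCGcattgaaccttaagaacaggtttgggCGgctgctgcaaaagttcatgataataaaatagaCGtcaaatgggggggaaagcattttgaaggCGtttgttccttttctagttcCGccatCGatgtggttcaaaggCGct
Sprr1a: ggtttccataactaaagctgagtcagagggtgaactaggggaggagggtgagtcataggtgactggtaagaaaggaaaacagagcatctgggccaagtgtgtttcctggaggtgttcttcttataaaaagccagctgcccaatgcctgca
Crabp1: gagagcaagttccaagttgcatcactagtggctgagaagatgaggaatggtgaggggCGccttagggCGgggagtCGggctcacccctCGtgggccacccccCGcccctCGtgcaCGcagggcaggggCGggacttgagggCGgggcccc
Anpep: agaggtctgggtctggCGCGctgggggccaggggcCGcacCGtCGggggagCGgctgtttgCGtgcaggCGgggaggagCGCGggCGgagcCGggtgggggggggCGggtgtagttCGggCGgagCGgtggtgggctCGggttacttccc
Cthrc1: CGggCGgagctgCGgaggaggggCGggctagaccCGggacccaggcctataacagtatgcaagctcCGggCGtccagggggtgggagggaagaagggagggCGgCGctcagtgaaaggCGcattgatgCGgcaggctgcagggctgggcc
Nxf3: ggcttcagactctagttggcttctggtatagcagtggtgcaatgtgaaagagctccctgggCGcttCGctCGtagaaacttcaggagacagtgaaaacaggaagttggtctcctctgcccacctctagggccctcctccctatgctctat
The stretches are chrX:163647248-163647397 on the minus strand for Tmsb4x, chr3:92289818-92289967 on the minus strand for Sprr1a, chr9:54612405-54612554 on the plus strand for Crabp1, chr7:86993097-86993246 on the minus strand for Anpep, chr15:38908328-38908477 on the plus strand for Cthrc1 and chrX:132619795-132619944 on the minus strand for Nxf3. They held 7 CpGs for Tmsb4x, 0 for Sprr1a, 9 for Crabp1, 17 for Anpep, 11 for Cthrc1 and 3 for Nxf3. Over the 300 bases around the start, the ratio of observed to expected CpG was 0.59, 0, 0.54, 0.81, 0.48 and 0.400 in the same order. The median ratio was 0.63 over the 101 genes silent in Nrdc-/- iMEF and 0.29 over the 110 silent in Nrdc+/+ iMEF. All 3 printed starts silent in Nrdc+/+ iMEF lay above the upper quartile of their class (0.397) and so are not typical of it. A window of 300 bases around the start held an AP-1 word (TGACTCA) only for Sprr1a of the 6, which also held CCAAT and a TATA word (TATAAA). The GC box (GGGCGG) was found for Tmsb4x, Crabp1, Anpep and Cthrc1 and the TEAD word (CATTCC) for Crabp1, Cthrc1 and Nxf3. Both strands were searched, and 60.96% of tested genes held the GC box, 11.96% the TEAD word and 3.36% the AP-1 word, so a match here is a description of the letters only.

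Most of the tested SRF-target and contractile genes of the actin cytoskeleton fell. Of 34 tested, 26 were lower and 4 higher in Nrdc-/- iMEF, with a median log2 difference of -1.25 against 0.00 over all genes. Myl9, the myosin regulatory light chain of smooth muscle and non-muscle contractile fibres, stood at 0.199 and 0.0475 RPKM in Nrdc-/- iMEF, against 201 and 199.7 RPKM in Nrdc+/+ iMEF (log2 difference -9.10, SE 0.17, adjusted p = 3.72e-09). Acta2, smooth muscle alpha-actin, stood at 52.5 and 52.3 RPKM in Nrdc-/- iMEF, against 1523 and 1465 RPKM in Nrdc+/+ iMEF (log2 difference -4.83, SE 0.06, adjusted p = 5.50e-10). Among ubiquitous cytoskeletal genes the falls were smaller, as for the cytoplasmic actin Actg1 (-0.65) and the alpha-tubulin Tuba1b (-1.01). All 4 tropomyosins, both alpha-actinins and both tested non-muscle myosin heavy chains fell too, with medians of -1.67, -1.87 and -1.89. Mylk, the kinase of the regulatory light chain, went the other way and rose to 1.69 and 1.32 RPKM in Nrdc-/- iMEF, against 0.171 and 0.196 RPKM in Nrdc+/+ iMEF (log2 difference 2.01, SE 0.18, adjusted p = 1.51e-05).

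Targets of the YAP and TEAD transcription factors, which respond to cell tension and density, included 14 that fell and 2 that rose of 20 tested (median -1.25). Ankrd1, an ankyrin repeat cofactor, stood at 0.196 and 0.0313 RPKM in Nrdc-/- iMEF, against 194 and 196 RPKM in Nrdc+/+ iMEF (log2 difference -9.10, SE 0.19, adjusted p = 5.81e-09). Ctgf, a matricellular CCN protein, stood at 3.21 and 3.78 RPKM in Nrdc-/- iMEF, against 74.0 and 67.6 RPKM in Nrdc+/+ iMEF (log2 difference -4.25, SE 0.09, adjusted p = 5.81e-09). Ankrd1 and Ctgf fell from high levels in Nrdc+/+ iMEF. The 2 that rose were Dock5, an activator of Rac (1.91), and Tgfb2, a TGF-beta ligand (0.53). Ajuba (Jub), a LIM protein that joins junctions to Hippo signalling, fell as well (-1.60).

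Basp1, a membrane protein of growing axons, stood at 0.0626 and 0 RPKM in Nrdc-/- iMEF, against 125 and 115 RPKM in Nrdc+/+ iMEF (log2 difference -8.75, SE 0.14, adjusted p = 1.79e-09). Dpysl3, a collapsin response mediator that binds tubulin and actin, stood at 0.0369 and 0.0176 RPKM in Nrdc-/- iMEF, against 94.7 and 86.5 RPKM in Nrdc+/+ iMEF (log2 difference -8.36, SE 0.14, adjusted p = 1.87e-09). Mtap2, the neuronal microtubule protein MAP2, fell (-5.12). Nrn1, the GPI-anchored neuritin, rose to 67.2 and 64.1 RPKM in Nrdc-/- iMEF, against 0 and 0.137 RPKM in Nrdc+/+ iMEF (log2 difference 7.73, SE 0.18, adjusted p = 8.77e-09). Others of the 20 largest falls were the RNA-binding protein Khdrbs3 (-6.96), the LIM protein Crip2 (-6.18), the sodium/calcium exchanger Slc24a3 (-6.09) and the bone-resorbing cathepsin Ctsk (-6.28).

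Matrix genes moved strongly in both directions. Of 20 collagen chains tested, 11 rose (55%) and 7 fell (35%), against 31.8% and 30.6% of all tested genes. The basement membrane chains Col4a1 and Col4a2, which share a promoter and assemble in one trimer, fell together. Col4a1 stood at 0.00848 and 0.0243 RPKM in Nrdc-/- iMEF, against 115 and 107 RPKM in Nrdc+/+ iMEF (log2 difference -8.71, SE 0.08, adjusted p = 2.40e-10), and Col4a2 at 0.00873 and 0.0167 RPKM in Nrdc-/- iMEF, against 77.4 and 64.8 RPKM in Nrdc+/+ iMEF (log2 difference -8.08, SE 0.11, adjusted p = 7.56e-10). Another basement membrane chain, Col4a6, did the reverse, with 4.99 and 4.74 RPKM in Nrdc-/- iMEF and 0 reads in Nrdc+/+ iMEF (at least 532-fold higher). Col6a2, a chain of microfibrillar collagen VI, rose to 116 and 118 RPKM in Nrdc-/- iMEF, against 9.63 and 9.09 RPKM in Nrdc+/+ iMEF (log2 difference 3.61, SE 0.06, adjusted p = 1.65e-09). Both chains of collagen I were not called (median 0.20).

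Mmp2, the gelatinase that cleaves denatured collagen and collagen IV, was among the 20 largest rises, at 438 and 462 RPKM in Nrdc-/- iMEF, against 0.679 and 0.893 RPKM in Nrdc+/+ iMEF (log2 difference 8.77, SE 0.09, adjusted p = 4.22e-10). Its inhibitor Timp2, which also takes part in its activation, rose to 514 and 489 RPKM in Nrdc-/- iMEF, against 216 and 213 RPKM in Nrdc+/+ iMEF (log2 difference 1.22, SE 0.06, adjusted p = 7.02e-07), while Timp3 fell (-1.83) and Timp1 was not called (-0.18). Urokinase (Plau), the activator of plasminogen, fell to 2.52 and 2.26 RPKM in Nrdc-/- iMEF, against 35.3 and 35.3 RPKM in Nrdc+/+ iMEF (log2 difference -3.76, SE 0.09, adjusted p = 1.05e-08). Protease and inhibitor genes therefore split by member. Of 18 matrix proteases and inhibitors, 9 rose (50%) and 6 fell (33.3%), against 31.8% and 30.6% of all tested genes. Adamts2, which trims procollagen, was among the rises (5.07) and Adamts5, an aggrecanase, among the falls (-1.98). Serpins, inhibitors mostly of serine proteases, leaned lower, with 7 lower and 3 higher of 11 (median -1.83). Serpinb6b (-6.94) and Serpinb9b (-5.19) fell most, whereas Serpinf1, the pigment epithelium-derived factor, rose to 155 and 160.0 RPKM in Nrdc-/- iMEF, against 25.7 and 27.6 RPKM in Nrdc+/+ iMEF.

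Several secreted proteins were among the 20 largest rises. Dkk3, a secreted Dickkopf-family glycoprotein, reached 99.0 and 102 RPKM in Nrdc-/- iMEF, against 0.0732 and 0 RPKM in Nrdc+/+ iMEF (log2 difference 8.47, SE 0.11, adjusted p = 8.32e-10). Rspo2, an R-spondin that strengthens Wnt signalling, reached 76.6 and 75.2 RPKM in Nrdc-/- iMEF, against 0.133 and 0.306 RPKM in Nrdc+/+ iMEF (log2 difference 7.37, SE 0.16, adjusted p = 6.87e-09). Spon2, a spondin of the matrix, reached 60.8 and 70.1 RPKM in Nrdc-/- iMEF, against 0.0439 and 0.0649 RPKM in Nrdc+/+ iMEF (log2 difference 7.75, SE 0.09, adjusted p = 5.50e-10). Each of them was close to absent in Nrdc+/+ iMEF. Ptgis, which makes prostacyclin, rose as well, to 43.8 and 47.7 RPKM in Nrdc-/- iMEF, against 0.0574 and 0 RPKM in Nrdc+/+ iMEF (log2 difference 7.37, SE 0.11, adjusted p = 1.17e-09). The remaining large rises included the secreted or matrix proteins Sned1 (7.54), Srpx2 (7.37) and Megf6 (7.27), and Arxes2 (7.24) and Tmem45a (7.11).

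Growth factor receptors changed member by member. Of 19 receptor tyrosine kinases tested, 7 rose (36.8%) and 5 fell (26.3%), against 31.8% and 30.6% of all tested genes, with a median of 0.22. Pdgfra, the alpha receptor for platelet-derived growth factor and a fibroblast marker, stood at 55.4 and 51.3 RPKM in Nrdc-/- iMEF, against 5.02 and 4.38 RPKM in Nrdc+/+ iMEF (log2 difference 3.44, SE 0.08, adjusted p = 9.55e-09). Ntrk3, the receptor for neurotrophin-3, stood at 6.25 and 6.34 RPKM in Nrdc-/- iMEF, against 0 reads in Nrdc+/+ iMEF (at least 451-fold higher). The VEGF receptors Flt1 and Kdr fell, Flt1 to 0.0649 and 0.0238 RPKM in Nrdc-/- iMEF, against 6.38 and 6.21 RPKM in Nrdc+/+ iMEF. Epha2, an ephrin receptor of migrating and epithelial cells, fell to 0.692 and 0.755 RPKM in Nrdc-/- iMEF, against 24.9 and 24.0 RPKM in Nrdc+/+ iMEF (log2 difference -4.66, SE 0.14, adjusted p = 2.87e-08). Of 14 Eph receptors and ephrins, 5 were higher (35.7%) and 6 lower (42.9%), against 31.8% and 30.6% of all tested genes.

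Axon guidance ligands and receptors showed the same lack of a common direction. Slit2, a repellent ligand, fell to 0 and 0.00366 RPKM in Nrdc-/- iMEF, against 6.76 and 6.85 RPKM in Nrdc+/+ iMEF (log2 difference -4.81, SE 0.13, adjusted p = 2.31e-08). Ntn1, an attractant of the netrin family, rose to 26.4 and 25.5 RPKM in Nrdc-/- iMEF, against 5.86 and 5.14 RPKM in Nrdc+/+ iMEF (log2 difference 2.19, SE 0.08, adjusted p = 9.62e-08). Sema3f, a repellent semaphorin, rose to 29.3 and 31.4 RPKM in Nrdc-/- iMEF, against 1.66 and 1.68 RPKM in Nrdc+/+ iMEF (log2 difference 3.99, SE 0.08, adjusted p = 3.87e-09). Nrp1, a receptor for class 3 semaphorins and VEGF, fell (-2.74). By count, 4 rose (44.4%) and 3 fell (33.3%) of 9 Slit, Robo, netrin and Unc5 genes. Of 18 semaphorins, plexins and neuropilins, 5 rose (27.8%) and 6 fell (33.3%), against 31.8% and 30.6% of all tested genes.

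Cytokine receptors leaned higher, with 14 higher (48.3%) and 7 lower (24.1%) of 29, against 31.8% and 30.6% of all tested genes. Osteoprotegerin (Tnfrsf11b), the decoy receptor for RANK ligand, stood at 48.7 and 44.4 RPKM in Nrdc-/- iMEF, against 4.39 and 4.69 RPKM in Nrdc+/+ iMEF (log2 difference 3.29, SE 0.07, adjusted p = 8.58e-09). The TWEAK receptor Tnfrsf12a fell (-1.95). Among gap junction and hemichannel genes, the pannexin Panx1 was silent in Nrdc-/- iMEF, against 4.20 and 4.99 RPKM in Nrdc+/+ iMEF.

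Shedding proteases and their substrates are the genes closest to the extracellular role of nardilysin. Of 14 tested, 4 were higher (28.6%) and 5 lower (35.7%), against 31.8% and 30.6% of all tested genes. Hbegf, a membrane-anchored EGF-receptor ligand whose shedding nardilysin enhances, fell to 2.05 and 1.98 RPKM in Nrdc-/- iMEF, against 18.05 and 17.1 RPKM in Nrdc+/+ iMEF (log2 difference -2.98, SE 0.08, adjusted p = 2.36e-08). Ereg, another ligand of that receptor, rose to 4.21 and 4.21 RPKM in Nrdc-/- iMEF, against 1.31 and 1.24 RPKM in Nrdc+/+ iMEF (log2 difference 1.55, SE 0.10, adjusted p = 2.45e-06). Among the proteases, Adam12 fell (-4.13) and Adam8 rose (1.36). Of the other M16 peptidases, Pitrm1, a mitochondrial presequence protease, fell (-1.18), as did the complex III core protein Uqcrc1 (-0.51), and Ide (0.02), Pmpca (-0.01), Pmpcb (0.35) and Uqcrc2 (0.33) were not called.

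Developmental transcription factors differed by family and by cluster. The Hox genes, which set position along the body axis, split by cluster, with 3 of 3 tested Hoxb genes higher, 5 of 5 Hoxc genes lower, and 2 higher and 3 lower of 8 Hoxa genes. Hoxc8 stood at 0.0754 and 0.0960 RPKM in Nrdc-/- iMEF, against 30.4 and 30.2 RPKM in Nrdc+/+ iMEF (log2 difference -6.51, SE 0.14, adjusted p = 6.74e-09). Hoxc6 stood at 0.0924 and 0.198 RPKM in Nrdc-/- iMEF, against 27.1 and 28.5 RPKM in Nrdc+/+ iMEF (log2 difference -6.16, SE 0.16, adjusted p = 1.88e-08). Hoxb2 stood at 4.25 and 5.38 RPKM in Nrdc-/- iMEF, against 0 and 0.0293 RPKM in Nrdc+/+ iMEF (log2 difference 4.25, SE 0.15, adjusted p = 8.22e-08). The Hoxc cluster was thus close to silent in Nrdc-/- iMEF at the genes that Nrdc+/+ iMEF used most.

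Homeobox factors outside the Hox clusters rose in 17 and fell in 6 of 29 cases (median 0.62). Prrx2, a factor of limb and craniofacial mesenchyme, stood at 21.2 and 21.1 RPKM in Nrdc-/- iMEF, against 0.655 and 0.422 RPKM in Nrdc+/+ iMEF (log2 difference 4.78, SE 0.13, adjusted p = 2.07e-08). Irx1, an Iroquois patterning factor, stood at 7.502 and 7.04 RPKM in Nrdc-/- iMEF, against 0 reads in Nrdc+/+ iMEF. Six2, which maintains kidney progenitors, stood at 7.06 and 6.14 RPKM in Nrdc-/- iMEF, against 0 reads in Nrdc+/+ iMEF. All of these genes were under 1 RPKM in Nrdc+/+ iMEF. Msx1, which acts downstream of BMP signals, had 0 reads in Nrdc-/- iMEF, against 1.85 and 2.18 RPKM in Nrdc+/+ iMEF, and its relative Msx2 had 0 reads in Nrdc-/- iMEF, against 4.50 and 4.24 RPKM in Nrdc+/+ iMEF. T-box, Fox, Sox and Pax factors rose in 14 and fell in 4 of 22 cases, with Tbx15, a factor of limb and skin mesenchyme, at 65.8 and 66.8 RPKM in Nrdc-/- iMEF, against 8.11 and 8.996 RPKM in Nrdc+/+ iMEF (log2 difference 2.92, SE 0.07, adjusted p = 8.83e-09). Hes1, a repressor downstream of Notch, fell to 0.142 and 0.162 RPKM in Nrdc-/- iMEF, against 9.38 and 9.30 RPKM in Nrdc+/+ iMEF (log2 difference -4.58, SE 0.15, adjusted p = 6.23e-08). Among nuclear receptors, the vitamin D receptor Vdr rose (2.57), while Pparg, the regulator of fat cell formation, had 0 reads in Nrdc-/- iMEF, against 7.43 and 6.66 RPKM in Nrdc+/+ iMEF.

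Imprinted genes, expressed from one parental copy, gave 6 rises (50%) and 3 falls (25%) among 12 tested, against 31.8% and 30.6% of all tested genes. Peg10, a retrotransposon-derived gene, stood at 58.1 and 57.7 RPKM in Nrdc-/- iMEF, against 1.201 and 0.988 RPKM in Nrdc+/+ iMEF (log2 difference 5.44, SE 0.08, adjusted p = 1.17e-09). Peg3, a zinc finger protein, stood at 10.4 and 10.6 RPKM in Nrdc-/- iMEF, against 0.00369 and 0 RPKM in Nrdc+/+ iMEF (log2 difference 5.42, SE 0.12, adjusted p = 7.03e-09). Peg3 was almost unread in Nrdc+/+ iMEF, and Peg10 was read there at a low level. Cdkn1c, a Cdk inhibitor expressed from the maternal copy, went the other way, to 0.0599 and 0.0286 RPKM in Nrdc-/- iMEF, against 11.3 and 11.5 RPKM in Nrdc+/+ iMEF (log2 difference -5.30, SE 0.15, adjusted p = 2.30e-08).

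Genes of MHC class I antigen presentation were higher without exception, 14 of 14 tested (median 2.02). Tap2, a subunit of the peptide transporter into the ER, stood at 15.2 and 16.2 RPKM in Nrdc-/- iMEF, against 0.104 and 0.0897 RPKM in Nrdc+/+ iMEF (log2 difference 5.52, SE 0.10, adjusted p = 3.05e-09). Of the interferon-stimulated genes, 13 were higher and 1 lower of 17 (median 1.95). Isg15, a ubiquitin-like protein, stood at 29.0 and 25.4 RPKM in Nrdc-/- iMEF, against 0.195 and 0.320 RPKM in Nrdc+/+ iMEF (log2 difference 5.76, SE 0.13, adjusted p = 9.31e-09). The member that fell was Irf9, the DNA-binding subunit of the factor that carries interferon signals to these genes, at 2.06 and 1.51 RPKM in Nrdc-/- iMEF, against 2.78 and 2.97 RPKM in Nrdc+/+ iMEF (log2 difference -0.63, SE 0.15, adjusted p = 0.00431). Complement genes rose in 7 of 8 cases, with the central component C3 at 2.49, and the collectin Colec12 was the exception (-1.03). Casp1, the inflammasome protease, rose to 5.17 and 4.90 RPKM in Nrdc-/- iMEF, against 0.0328 and 0 RPKM in Nrdc+/+ iMEF (log2 difference 4.31, SE 0.15, adjusted p = 8.44e-08), whereas Ripk3, the necroptosis kinase, fell to 0.118 and 0.112 RPKM in Nrdc-/- iMEF, against 13.4 and 14.5 RPKM in Nrdc+/+ iMEF (log2 difference -5.28, SE 0.18, adjusted p = 7.17e-08).

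Cell cycle genes were lower in both G1/S and G2/M. Of 44 G1/S and replication genes, 35 fell and 2 rose (median -0.74), and of 41 G2/M genes, 28 fell and 2 rose (median -0.59). Ccnd1, the cyclin that starts G1, stood at 32.8 and 35.2 RPKM in Nrdc-/- iMEF, against 197 and 199 RPKM in Nrdc+/+ iMEF (log2 difference -2.53, SE 0.06, adjusted p = 1.01e-08). Cdt1, which loads the replicative helicase, stood at 6.23 and 6.88 RPKM in Nrdc-/- iMEF, against 31.4 and 29.8 RPKM in Nrdc+/+ iMEF (log2 difference -2.18, SE 0.08, adjusted p = 7.00e-08). Ccnb2, a mitotic B-type cyclin, stood at 14.6 and 14.999 RPKM in Nrdc-/- iMEF, against 57.0 and 59.6 RPKM in Nrdc+/+ iMEF (log2 difference -1.96, SE 0.07, adjusted p = 6.78e-08). The genotypes did not overlap in these genes, which held for 86.5% of all tested genes and follows from picking called genes with large falls. The exceptions that rose were the GINS subunit Gins3 (1.66), the origin recognition subunit Orc6 (0.65), securin (Pttg1) (1.19) and the kinetochore protein Spc24 (0.41). The genes followed by RT-PCR are a list chosen on these samples and so not independent evidence of its direction. All 10 were lower (median -1.49). Its remaining members were Brca1 (-0.61), Ccnf (-0.48), Cdk1 (-1.21), Dscc1 (-1.39), Fbxo5 (-1.07), Hmga2 (-4.78), Jub (-1.60) and Src (-2.10), where Fbxo5 restrains the anaphase-promoting complex and Dscc1 helps to load the replication clamp. The call of Spc24 was lost without Nrdc-/- replicate 2, and that of Ccnf without Nrdc-/- replicate 1 or without Nrdc+/+ replicate 1.

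The inhibitors of cyclin-dependent kinases split in a way that the list of cycle genes does not show. Higher in Nrdc-/- iMEF were p21 (Cdkn1a), p27 (Cdkn1b), p18 (Cdkn2c) and p19 (Cdkn2d), with log2 differences of 2.91, 1.37, 2.07 and 1.295. Cdkn1a, the p53 target among them, stood at 26.4 and 29.7 RPKM in Nrdc-/- iMEF, against 3.42 and 3.59 RPKM in Nrdc+/+ iMEF. Lower were p57 (Cdkn1c, given above), Cdkn2a and Cdkn2b. Cdkn2a, which encodes both p16 and Arf, stood at 5.78 and 5.75 RPKM in Nrdc-/- iMEF, against 407 and 386 RPKM in Nrdc+/+ iMEF (log2 difference -6.04, SE 0.06, adjusted p = 2.40e-10). The p53 targets as a list held 12 higher (44.4%) and 8 lower (29.6%) of 27, against 31.8% and 30.6% of all tested genes. Among them, Perp, a desmosome protein, stood at 52.9 and 50.5 RPKM in Nrdc-/- iMEF, against 4.93 and 5.58 RPKM in Nrdc+/+ iMEF. The BH3-only protein Noxa (Pmaip1) had 0 reads in Nrdc-/- iMEF, against 6.33 and 6.28 RPKM in Nrdc+/+ iMEF. Among other death regulators, the BH3-only protein Bmf rose to 23.6 and 24.3 RPKM in Nrdc-/- iMEF, against 0.486 and 0.286 RPKM in Nrdc+/+ iMEF (log2 difference 5.27, SE 0.15, adjusted p = 2.30e-08).

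Chaperones and enzymes of the endoplasmic reticulum rose, 18 of 25 higher and 3 lower (median 0.98). Calreticulin (Calr), the lectin chaperone of glycoproteins, stood at 1422 and 1388 RPKM in Nrdc-/- iMEF, against 343 and 331 RPKM in Nrdc+/+ iMEF (log2 difference 2.06, SE 0.07, adjusted p = 6.50e-08). Sdf2l1, a cofactor of the chaperone BiP, stood at 90.2 and 91.5 RPKM in Nrdc-/- iMEF, against 18.6 and 17.05 RPKM in Nrdc+/+ iMEF (log2 difference 2.34, SE 0.13, adjusted p = 1.18e-06). The members that fell most were the stress transcription factor Chop (Ddit3) (-0.44) and the pseudokinase Trib3 (-0.52), which are induced by the PERK branch of the response. Of 16 glutathione S-transferases and peroxidases, 8 were higher (50%) and 4 lower (25%), against 31.8% and 30.6% of all tested genes. Among 6 peroxiredoxins, 4 were higher (66.7%) and 2 lower (33.3%). Gpx7, a peroxidase of the ER, stood at 91.7 and 91.8 RPKM in Nrdc-/- iMEF, against 0.914 and 0.788 RPKM in Nrdc+/+ iMEF (log2 difference 6.39, SE 0.07, adjusted p = 5.50e-10), and the ER peroxiredoxin Prdx4 at 205 and 226 RPKM in Nrdc-/- iMEF, against 36.2 and 43.2 RPKM in Nrdc+/+ iMEF (log2 difference 2.44, SE 0.09, adjusted p = 1.06e-07).

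Glycolytic enzymes were higher in 12 and lower in 2 of 18 cases (median 0.63), with the platelet phosphofructokinase Pfkp at 11.5 and 10.5 RPKM in Nrdc-/- iMEF, against 2.22 and 2.23 RPKM in Nrdc+/+ iMEF (log2 difference 2.18, SE 0.10, adjusted p = 3.20e-07). The muscle enolase Eno3 was one of the falls, at 9.79 and 9.47 RPKM in Nrdc-/- iMEF, against 82.3 and 72.8 RPKM in Nrdc+/+ iMEF (log2 difference -2.97, SE 0.09, adjusted p = 3.53e-08). Car9, the carbonic anhydrase known as a hypoxia target, stood at 13.3 and 13.1 RPKM in Nrdc-/- iMEF, against 0.0640 and 0.0210 RPKM in Nrdc+/+ iMEF (log2 difference 5.53, SE 0.16, adjusted p = 2.64e-08). Subunits of respiratory complexes I, III and IV leaned higher (23 higher, 5 lower of 57, median 0.27). Among the falls, Cox7a2l, a factor of supercomplex assembly, stood at 162 and 159.8 RPKM in Nrdc-/- iMEF, against 763 and 846 RPKM in Nrdc+/+ iMEF (log2 difference -2.32, SE 0.07, adjusted p = 3.50e-08). Cox7a2l lies in the lowest run of neighbouring genes, on chromosome 17, described below. Genes of cholesterol synthesis and uptake rose in 8 of 23 cases, near the background of 31.8%, and fell in 0, against a background of 30.6%. Ribosomal proteins leaned higher (44 higher, 2 lower of 79, median 0.41). Their median gene length of 1464 bases is short against 3640.5 for all tested genes, and with all genes cut into 5 equal classes by length, the shortest class had a median difference of 0.23 and the longest of -0.11. What gene length contributes to the ribosomal protein difference was not tested.

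**Figure D3:**
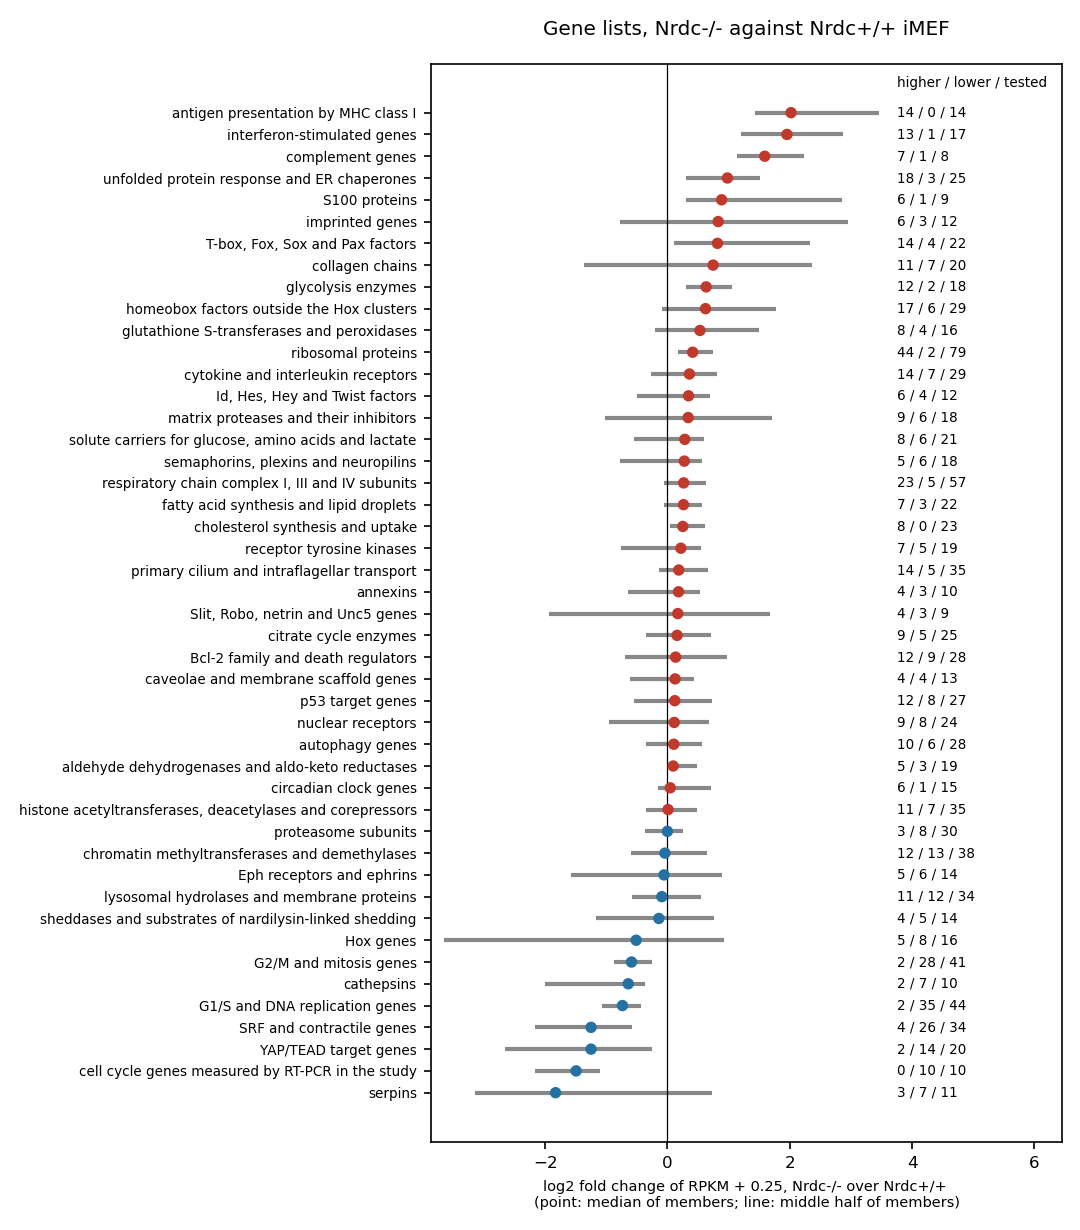
Median log2 difference of the members of each gene list (points, Nrdc-/- over Nrdc+/+ iMEF) with their quartiles (lines) and the counts of members higher, lower and tested. MHC class I, interferon-stimulated and complement genes stand at the top with medians of 2.02, 1.95 and 1.59, and contractile, YAP/TEAD and serpin genes near the bottom with -1.25, -1.25 and -1.83.

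Chromatin genes, taken up here because of the nuclear role of nardilysin, showed no common direction. Among methyltransferases and demethylases, 12 were higher and 13 lower of 38. These shares, 31.6% and 34.2%, are near the 31.8% and 30.6% of all tested genes. The maintenance DNA methyltransferase Dnmt1 stood at 24.9 and 25.8 RPKM in Nrdc-/- iMEF, against 69.0 and 59.8 RPKM in Nrdc+/+ iMEF (log2 difference -1.33, SE 0.08, adjusted p = 1.62e-06). Ezh1, a methyltransferase of Polycomb complex 2, rose (1.94), as did the H3K4 demethylase Kdm5c (1.52), while the H3K9 methyltransferase Suv39h2 fell (-1.25). Among acetyltransferases, deacetylases and corepressors, 11 were higher (31.4%) and 7 lower (20%) of 35. The corepressor subunit Tbl1xr1 rose (1.58) and the acetyltransferase Myst4 rose (1.87), while the corepressor Rcor2 (-1.57) and the deacetylase Hdac11 (-1.54) fell.

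In several families one member fell while another rose. The beta-thymosin Tmsb10 stood at 208 and 187 RPKM in Nrdc-/- iMEF, against 139 and 119.6 RPKM in Nrdc+/+ iMEF (log2 difference 0.61, SE 0.09, adjusted p = 3.56e-04), where its relative Tmsb4x was silent. Of the other myosin regulatory light chains, Myl12a fell (-0.98) and Myl12b rose (0.66). Enolase 2 rose (1.054) and enolase 1, by far the most abundant, was not called (-0.03). The IGF-binding protein Igfbp3 fell to 0.0185 and 0 RPKM in Nrdc-/- iMEF, against 19.1 and 19.9 RPKM in Nrdc+/+ iMEF (log2 difference -6.25, SE 0.14, adjusted p = 7.17e-09), while Igfbp4 rose to 82.2 and 85.5 RPKM in Nrdc-/- iMEF, against 4.08 and 4.40 RPKM in Nrdc+/+ iMEF (log2 difference 4.23, SE 0.06, adjusted p = 1.33e-09).

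Further families split in the same way. The fibulins Fbln1 (1.74) and Efemp2 (0.93) rose, and Fbln2 (-2.08), Fbln5 (-1.12) and Efemp1 (-7.23) fell. The nidogens, which link laminin to collagen IV, went apart, with Nid1 (-2.56) lower and Nid2 (0.73) higher. Thrombospondin 1 fell to 15.5 and 14.9 RPKM in Nrdc-/- iMEF, against 144 and 128 RPKM in Nrdc+/+ iMEF, and thrombospondin 2 rose to 70.5 and 69.8 RPKM in Nrdc-/- iMEF, against 34.5 and 32.5 RPKM in Nrdc+/+ iMEF. Of the CCN proteins, Wisp2 rose (1.68) while Ctgf, Cyr61 (-3.34), Nov (-3.44) and Wisp1 (-2.33) fell. Among peroxiredoxins, Prdx2 rose with Prdx4 (2.37), and Prdx1 (-0.58) and Prdx6 (-0.49) fell. The neuronal beta-tubulin Tubb3 rose (1.64), and Tubb6 fell (-1.90).

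Marker genes fitted the label of fibroblasts in both genotypes, apart from Thy1 and Lum, which averaged under 1 RPKM in each. The 16 fibroblast markers summed to 6281 and 6209 RPKM in Nrdc-/- iMEF, against 4757 and 4298 RPKM in Nrdc+/+ iMEF, with 8 higher and 2 lower of 14 tested. Within the list the members were exchanged, as Dcn, a small matrix proteoglycan, stood at 389 and 368 RPKM in Nrdc-/- iMEF, against 6.64 and 5.45 RPKM in Nrdc+/+ iMEF, and Postn, a matricellular protein, at 9.19 and 8.73 RPKM in Nrdc-/- iMEF, against 55.4 and 55.2 RPKM in Nrdc+/+ iMEF. The 9 smooth muscle and pericyte markers summed to 117 and 119 RPKM in Nrdc-/- iMEF, against 1955 and 1857 RPKM in Nrdc+/+ iMEF, carried by Acta2 and Tagln, the actin-binding transgelin, at 10.4 and 10.5 RPKM in Nrdc-/- iMEF, against 390.4 and 354 RPKM in Nrdc+/+ iMEF. The pericyte proteoglycan Cspg4 did the reverse, at 51.7 and 53.6 RPKM in Nrdc-/- iMEF, against 3.52 and 2.65 RPKM in Nrdc+/+ iMEF (log2 difference 3.999, SE 0.12, adjusted p = 2.84e-08). The 9 epithelial markers summed to 0.618 and 0.350 RPKM in Nrdc-/- iMEF, against 7.15 and 7.201 RPKM in Nrdc+/+ iMEF, almost all of it the keratin Krt19, and 8 of the 9 were under 1 RPKM in Nrdc+/+ iMEF. Blood cell markers summed to 12.1 and 12.1 RPKM in Nrdc-/- iMEF, against 6.97 and 7.78 RPKM in Nrdc+/+ iMEF, endothelial markers to at most 1.70 RPKM and Y-linked genes to at most 0.141 RPKM in any library. Skeletal muscle markers summed to 1.99 and 2.43 RPKM in Nrdc-/- iMEF, against 13.4 and 10.4 RPKM in Nrdc+/+ iMEF. Of these 9 genes, Myod1, Myog, Myf6, Ckm and Pax7 had 0 reads in all 4 libraries, and most of the sum in Nrdc+/+ iMEF was the actin Acta1 and the paired box factor Pax3, with Pax3 at 0 reads in Nrdc-/- iMEF, against 3.59 and 3.81 RPKM in Nrdc+/+ iMEF. Adipocyte markers summed to 2.72 and 3.29 RPKM in Nrdc-/- iMEF, against 9.22 and 7.86 RPKM in Nrdc+/+ iMEF, where most of it was Pparg. In Nrdc-/- iMEF, where Pparg had 0 reads, nearly all of the sum was Fabp4, which was higher there (log2 difference 1.85). Pluripotent and germ cell markers summed to 0.0825 and 0.118 RPKM in Nrdc-/- iMEF, against 4.46 and 3.97 RPKM in Nrdc+/+ iMEF, where nearly all of it was Sox2, and Nanog and Zfp42 had 0 reads in all 4 libraries. Neural markers summed to 14.2 and 17.1 RPKM in Nrdc-/- iMEF, against 13.6 and 12.9 RPKM in Nrdc+/+ iMEF. Cartilage and bone markers summed to 18.02 and 17.5 RPKM in Nrdc-/- iMEF, against 16.2 and 15.3 RPKM in Nrdc+/+ iMEF. Of 3 tested, 2 rose and 1 fell. Sox9 stood at 16.1 and 15.8 RPKM in Nrdc-/- iMEF, against 9.42 and 8.90 RPKM in Nrdc+/+ iMEF. Col2a1 stood at 1.84 and 1.67 RPKM in Nrdc-/- iMEF, against 0.0407 and 0.0161 RPKM in Nrdc+/+ iMEF. The proteoglycan Acan fell, at 0.00786 and 0 RPKM in Nrdc-/- iMEF, against 6.54 and 6.26 RPKM in Nrdc+/+ iMEF. The epithelial keratin Krt14, the endothelial Cldn5 and Tie1 and the macrophage Emr1 and Tyrobp had 0 reads in all 4 libraries. What other cells contribute to the differences was not tested.

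The differences also varied along the genome. On chromosomes 12, 10, 18, 13, 4 and 15 the median gene was lower in Nrdc-/- iMEF, by log2 medians of -0.44, -0.43, -0.42, -0.37, -0.34 and -0.22, and each of the 5 equal parts of each of these chromosomes had a median below 0. On chromosomes 11, 17, X, 6 and 16 it was higher, by 0.35, 0.29, 0.29, 0.25 and 0.22. On the rest it lay between -0.00 and 0.12. On chromosome 12, 219 of 410 tested genes were lower and 71 higher, and on chromosome 11, 438 of 913 were higher and 147 lower. Within a genotype the libraries differed by at most 0.05 in any chromosome median. DNA copy number was not measured, and the part of chromosome dosage in single-gene differences was not tested. With each library centred on its chromosome medians, an alternative added after the data were seen, the calls of Ddit3, Prdx1 and Tmsb10 were lost, while Timp1 and Plekhh2 became called as lower.

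**Figure D4:**
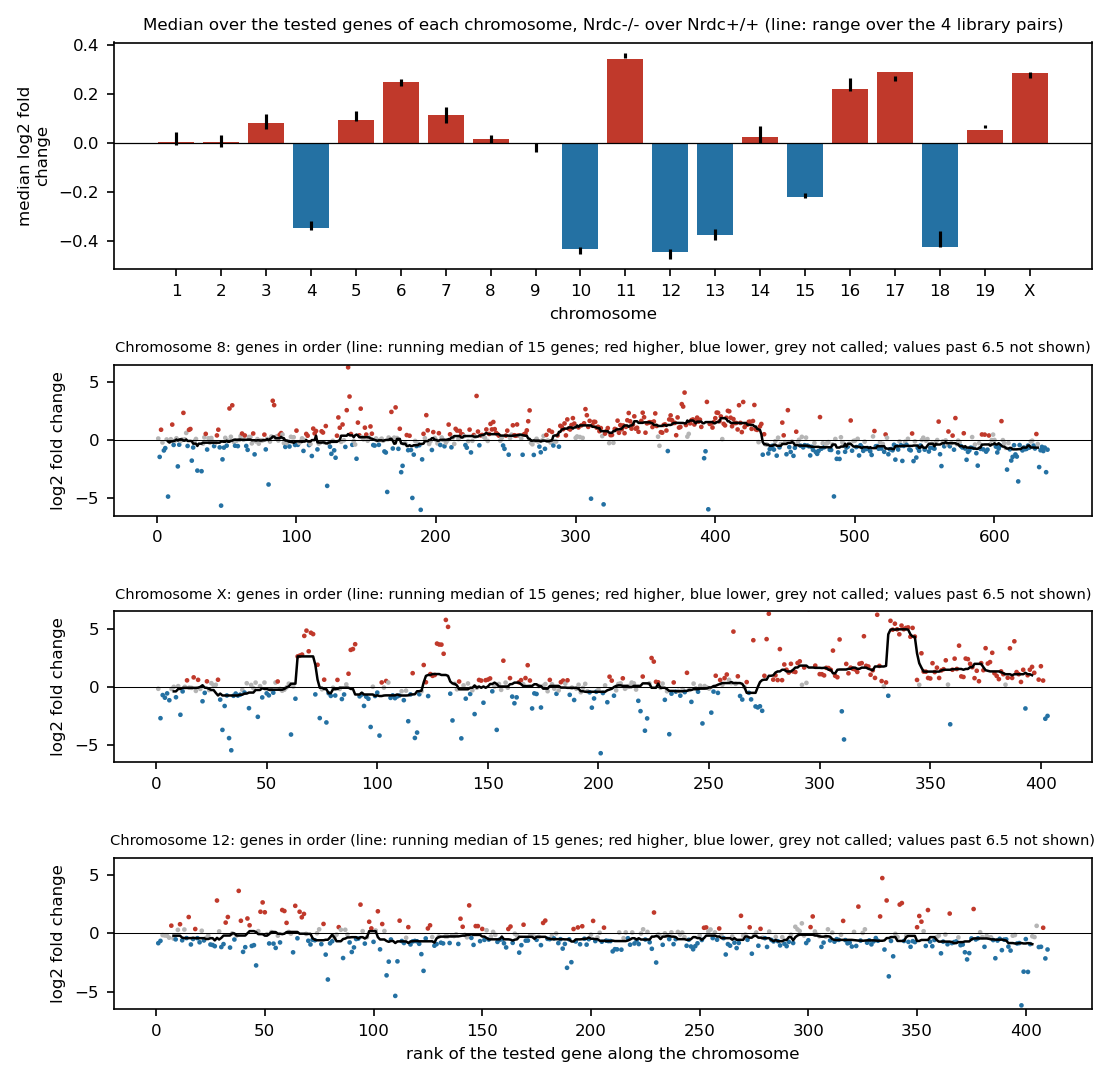
Top: median log2 difference of the tested genes of each chromosome, Nrdc-/- over Nrdc+/+ iMEF (bars), with the range over the 4 pairs of libraries (lines), from -0.44 on chromosome 12 to 0.35 on chromosome 11. Below: the log2 difference of each tested gene against its rank along chromosomes 8, X and 12 with a running median of 15 genes, which shows the raised stretches of 152 genes on chromosome 8 and 131 genes at the end of chromosome X and the downward shift along chromosome 12.

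Stretches of neighbouring genes stood apart within a chromosome. The bounds of the stretches and runs given here were set from these values, so their counts and medians are a description with no test. On chromosome 8, the 152 tested genes from Hmgxb4 to Tk2 (chr8:77517255-106772458, mm9) included 128 that rose and 8 that fell, with a median of 2.46-fold. Before the stretch, 284 genes had a median of 1.03-fold, and after it 202 genes had a median of 0.70-fold, with 121 lower and 20 higher. Mmp2, Calr, Prdx2, Rtbdn, Bbs2, Orc6, Gins3 and the complex I subunit Ndufb7 lie inside it, and so do the silent genes Ces1g and Cd97. The rise of Mmp2 is far above that of its neighbours, while those of Calr (2.06) and Gins3 (1.66) are nearer to it. On chromosome X, the 131 genes from Gm6604 on (chrX:120715082-166443668) included 115 that rose and 10 that fell, with a median of 2.78-fold, against 0.89-fold for the 272 genes before it. Nxf3, Arxes1, Arxes2, Bhlhb9, Srpx2, Prdx4, Kdm5c, Rpl36a and the silent Tmsb4x lie there. Of the 20 largest rises, 2 lie in the chromosome 8 stretch and 5 in the X stretch, and of the 20 largest falls, 0 and 1.

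Smaller runs held the extremes. The run of 15 neighbouring genes with the highest median, 4.95 on the log2 scale, lay at chrX:139720217-145922327, where 9 genes had 0 reads in Nrdc+/+ iMEF, among them Ott at 7.70 and 7.32 RPKM and Luzp4 at 9.05 and 9.78 RPKM in Nrdc-/- iMEF. Ott belongs to a multicopy family of the X chromosome, so the assignment of reads among its copies is uncertain. A further run on chromosome 14, the 37 genes from Bmpr1a to Cdkn3 (chr14:35223920-47391200), held 24 genes that rose and 5 that fell, with a median of 2.64. Inside it, at chr14:41807029-45344662, 20 of 21 genes were higher and Gm8113 was lower (-1.79). These genes may be copies of one another, and how reads were shared among copies is not stated in the sources used here, so their single-gene levels are uncertain. The lowest run, with a median of -2.32, lay at chr17:80979852-85489607, and Cox7a2l (-2.32) lies in this run. Within it, 7 of the 8 genes from Zfp36l2 to Prepl fell, and 6 of them by at least 4-fold, with Thada, a gene of thyroid adenoma breakpoints in human, at 5.09 and 5.11 RPKM in Nrdc-/- iMEF, against 74.9 and 75.8 RPKM in Nrdc+/+ iMEF (log2 difference -3.82, SE 0.07, adjusted p = 3.01e-09). Lrpprc, which stabilises mitochondrial mRNAs, stood at 15.96 and 14.3 RPKM in Nrdc-/- iMEF, against 118 and 123 RPKM in Nrdc+/+ iMEF (log2 difference -2.97, SE 0.07, adjusted p = 1.26e-08). Plekhh2, between them, was not called (-0.19). On chromosome 4, Cdkn2a, Cdkn2b and Mtap (chr4:88783026-88956941) stood together at 1.46%, 2.93% and 1.39% of the level in Nrdc+/+ iMEF. Of the 9 tested genes from Mllt3 to Tusc1 around them, 7 fell and 1 rose. Further falls there were those of Mllt3 (-1.26), BC057079 (-0.91) and Gm12666 (-0.77), and Tusc1 had 0 reads in Nrdc-/- iMEF, against 2.30 and 4.01 RPKM in Nrdc+/+ iMEF (at least 50.9-fold lower). Ptplad2 rose (0.97), and Klhl9, the tested gene next to Mtap, was not called (-0.10). Mtap, an enzyme of methionine salvage, stood at 0.752 and 1.16 RPKM in Nrdc-/- iMEF, against 68.4 and 69.6 RPKM in Nrdc+/+ iMEF. On chromosome 17, the 26 genes of the MHC run (chr17:34066488-34987155) included 18 that rose and 0 that fell.

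Genes with large differences had starts poorer in CpG than genes that were not called. In the window of 250 bases before to 50 after the annotated start, the median ratio of observed to expected CpG was 0.40 for the 614 genes higher at least 4-fold in Nrdc-/- iMEF, 0.61 for the 536 lower at least 4-fold and 0.78 for the 4342 not called. The share of starts at a ratio of at least 0.6 was 31.9%, 51.7% and 74.1% in the same order. The 101 genes with 0 reads in Nrdc-/- iMEF had a median ratio of 0.63, against 0.29 for those with 0 reads in Nrdc+/+ iMEF and 0.33 for the 55 of these that lie outside chromosome X and have a symbol other than Gm or Rik. An ETS word (CCGGAAG) was present in 7.49% of the starts higher at least 4-fold, 3.92% of those lower at least 4-fold, 20.6% of those not called and 17.97% of all tested. The AP-1 word was present in 6.19%, 5.97%, 2.67% and 3.36%, and the TEAD word in 16.9%, 16.4%, 10.7% and 11.96%, in the same order. These shares carry no test, since the gene classes were set by the expression difference and differ in CpG content.

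**Figure D5:**
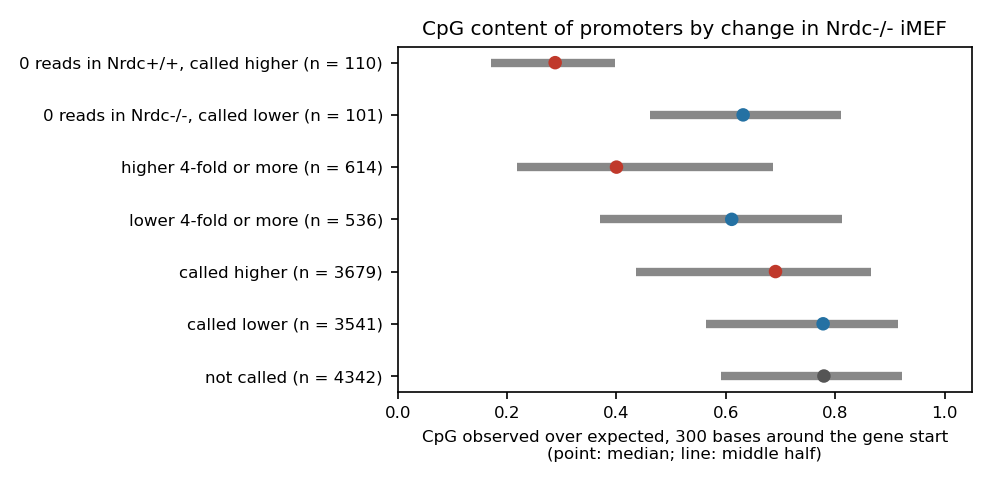
Ratio of observed to expected CpG in the 300 bases around the annotated start (horizontal) by class of gene, with medians as points and quartiles as lines. The medians are 0.29 for genes silent in Nrdc+/+ iMEF, 0.63 for those silent in Nrdc-/- iMEF, 0.40 for those higher and 0.61 for those lower at least 4-fold, and 0.78 for genes not called.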

How the data were processed

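RNA-seq of 2 Nrdc-/-, 2 Nrdc+/+ and 2 virus-infected Nrdc-/- iMEF libraries was used, grouped by the labels. The authors aligned reads to mm9 with STAR and Bowtie2, counted them per gene with featureCounts of Subread, computed RPKM with edgeR, and deposited the RPKM as log2 values with a small floor added before the log. Tool versions, and whether counting used strand, are not stated in the sources used here, so overlapping and near-identical genes are uncertain. The floor was subtracted, and all values under 60 reads came out as whole reads within 0.05. The unit was planned as RPKM and proved to be log2 RPKM, and the test was run after conversion. Levels were fitted as log2(RPKM + 0.25) with limma 3.58.1 in R 4.3.3 (trended empirical Bayes, 3 residual and 4.94 prior degrees of freedom, all 6 libraries, no covariate), with Benjamini-Hochberg adjustment over the 11564 genes averaging 0.5 RPKM or more. The procedure was also run on simulated libraries with few changed genes and no chromosome-wide shifts, unlike these data, so that run does not vouch for the calls made here. Adjusted p-values throughout are from this fit. Tables and plots were made in Python 3.11.15 with pandas 2.3.3 and matplotlib 3.10.9. Symbols stored as dates (25) or blank (41) were restored by gene ID, and 31 stayed as the ID. Named genes were Nrd1, the genes measured by RT-PCR, the 20 largest rises and falls among genes averaging 5 RPKM or more, genes with 0 reads in one genotype and 10 RPKM or more in the other, the 10 most abundant per genotype, the 2 largest rises and falls of each list, opposed paralogues, and the genes of the extreme runs and of the neighbourhoods described, the last being chosen after their values were seen. Some genes that this rule names are not reported here. Members and lists were chosen with earlier results of these data known. Of 1550 listed symbols 1533 matched, 15 of them through another symbol. Floors and bounds cover counting error only. Alternatives changed the pseudocount, filter, normalization, spread, block, thresholds and libraries.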

Additional observations from a re-analysis of the deposited data

How the results depend on the processing

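The 7221 calls (3680 higher, 3541 lower in Nrdc-/- iMEF) moved by over 1.5 times only when fewer genes were tested or the thresholds were raised. A mean of at least 5 RPKM left 4761 calls (2322 higher, 2439 lower), and an adjusted p under 0.01 with a fold of at least 2 left 2916 (1598 higher, 1318 lower). Testing against a fold of 1.3 gave 5087 calls, and dropping the fold limit 8658. Voom on the recovered reads called 7243 genes and quantile normalization 7139 (3450 higher, 3689 lower). Centring each library on its chromosome medians, added after the data were seen, called 6852 (3467 higher, 3385 lower). Leaving out each library in turn gave 6902 to 7064 calls, 3478 to 3586 higher and 3424 to 3493 lower, where the lone library is assumed to vary like the others. The replicate block gave 7241 calls (3693 higher, 3548 lower), but same-numbered libraries deviated together at correlations of -0.04, -0.08 and 0.01 only, so the numbers do not pair them. No gene called both in the reported fit and in any of these alternatives changed direction. Of 377 named genes called, 311 were called in every alternative that tested them, and the most calls were lost to the raised thresholds (66), to the test against a fold of 1.3 (27) and to centring by chromosome (15). The median of 6 gene lists changed sign under quantile normalization or centring by chromosome, each of them close to 0: aquaporins with connexins and pannexins, acetyltransferases with deacetylases and corepressors, autophagy, clock, caveolae and M16 genes. With 2 libraries per genotype, depth limits the genes of low level most.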

Other observations

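The libraries of Nrdc-/- iMEF infected with an Nrdc-expressing virus lie outside the comparison above, and their values for the stretches named there are given as medians of log2 differences. In the chromosome 8 stretch the infected libraries stood 1.14 above Nrdc+/+ iMEF and -0.08 from Nrdc-/- iMEF, and in the chromosome X stretch 0.62 above Nrdc+/+ iMEF and -0.60 from Nrdc-/- iMEF. In the 8 genes from Zfp36l2 to Prepl on chromosome 17 they stood at -2.18 from Nrdc+/+ iMEF and 0.41 from Nrdc-/- iMEF. For Cdkn2a, Cdkn2b and Mtap they stood at 0.11 from Nrdc+/+ iMEF and 5.80 from Nrdc-/- iMEF. For the 8 Ott-like genes of chromosome X they stood at 0.41 from Nrdc+/+ iMEF and -4.35 from Nrdc-/- iMEF. On chromosomes 12, 10, 18 and 13 the median gene of the infected libraries stood at -0.58, -0.58, -0.46 and -0.44 from Nrdc+/+ iMEF. From Nrdc-/- iMEF it stood at -0.17, -0.16, -0.12 and -0.09 in the same order. On chromosomes 4 and 15, which were also lower in Nrdc-/- iMEF, it stood at -0.13 and -0.04 from Nrdc+/+ iMEF and at 0.27 and 0.17 from Nrdc-/- iMEF. Nrd1 itself was read at 5.89 and 5.397 RPKM in them, Tmsb4x at 24.5 and 25.2 RPKM, Anpep at 83.0 and 81.4 RPKM and Mmp2 at 324 and 325 RPKM.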
